A study of Mus musculus with 6 samples.

Results

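The 38 genes described here encode the pyruvate dehydrogenase (PDH) complex, most enzymes of the Krebs cycle, and enzymes that make or use α-ketoglutarate (αKG), glutamate or 2-hydroxyglutarate. The rule that lists them uses their roles and no measured value, although earlier results of these data were known when they were chosen, and all 38 were found by gene symbol among the 20066 genes of the deposited RNA-seq table. Genes of the mitochondrial genome are not among the 38.

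The Krebs cycle oxidises acetyl-CoA in the mitochondrial matrix and passes electrons to the respiratory chain, and the heart relies on it for most of its ATP. αKG is made in the cycle by the isocitrate dehydrogenases and consumed by the oxoglutarate dehydrogenase (OGDH) complex. It is also exchanged with glutamate by the aminotransferases, and it is a cosubstrate of dioxygenases that include histone demethylases.

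Neonatal cardiomyocytes (CMs) were isolated from C57BL/6 mice at P0-1, kept as a primary culture in medium with serum, and treated for 96 h with cell-permeable αKG (3 libraries) or with its solvent DMSO (3 libraries). All libraries share the strain, age and culture. The αKG concentration is 100 µM per the labels, and the study's methods give another one. The study's methods state, in their part on imaging, that a sample of neonatal CMs stands for one isolation from pooled hearts. The labels do not say this of the libraries used here, and if it does not hold for them, p-values measure only the spread between these libraries, which may be technical. The comparison asks which transcripts of these enzymes differ when the cells are given the metabolite itself.

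The deposited values are normalized read counts rounded to whole numbers, with totals of 4069900 to 4168009 per library. The spacing of low values put the reads behind them at about 3725428 to 4429134 per library, which covers counting error only. Of the 8 CM markers checked, all were listed and none was at 0 in any library, and their summed value was 26135, 26184 and 26671 across DMSO replicates 1 to 3, against 30642, 29813 and 26727 across αKG replicates 1 to 3. αKG replicate 3 stood apart from its group. Its log2 values correlated across genes at 0.962 and 0.963 with αKG replicates 1 and 2, and at 0.977 to 0.98 with the DMSO libraries, so the counts and medians over the 38 genes, and the genes that passed the threshold without it, are given both ways. The libraries also differed in markers of other cells. The summed value of 8 fibroblast markers was 3211 to 3393 in DMSO, 7183 and 7012 in αKG replicates 1 and 2, and 3265 in αKG replicate 3, and that of 8 epicardial markers was 170 to 186, 799, 739 and 105. Endothelial markers summed to 1974 to 2080 in DMSO and to 1490, 1387 and 1378 in αKG replicates 1 to 3. In this sum αKG replicate 3 lay with its group and not with DMSO. Of the 8 endothelial markers, 6 fell, while 2 were fitted higher. The endothelial marker with the highest mean, Flt1, had 485, 510 and 499 in DMSO and 733, 719 and 411 in αKG. In bulk RNA, fewer cells of a type and less RNA per cell cannot be told apart, and the part of these differences in the results below was not tested.

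None of the 38 genes passed the threshold in the comparison of all 6 libraries. The threshold was an adjusted p under 0.05 (Benjamini-Hochberg over all 20066 genes), and limma was run on log2(value + 1). There, 759 genes passed, which is 3.78% of all genes. The smallest adjusted p among the 38 was 0.0747, for Bcat1. At an unadjusted p under 0.05, 6 of the 38 passed (15.8%), against 28.1% of all genes and 38.4% of genes with a mean value of at least 100. These 6 were Bcat1, with a higher value in αKG, and Sdhd, Sdhc, Got1, Sucla2 and Got2, with lower ones. A limma-voom fit to the estimated reads also passed 0 of the 38, and 13 at an unadjusted p, where 27.1% of all genes had one. The fitted log2 fold change of αKG against DMSO was below 0 for 30 genes, of which Suclg2 and D2hgdh round to 0.00, and above 0 for 8, with a range of -0.37 to 1.35. Its median was -0.10, where the median of all genes was 0.04 and that of the 8295 genes with a mean value of at least 100, a class that holds 36 of the 38, was -0.08. Below 0 were 78.9% of the 38, 47.1% of all genes and 62.6% of that class.

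**Figure D1:**
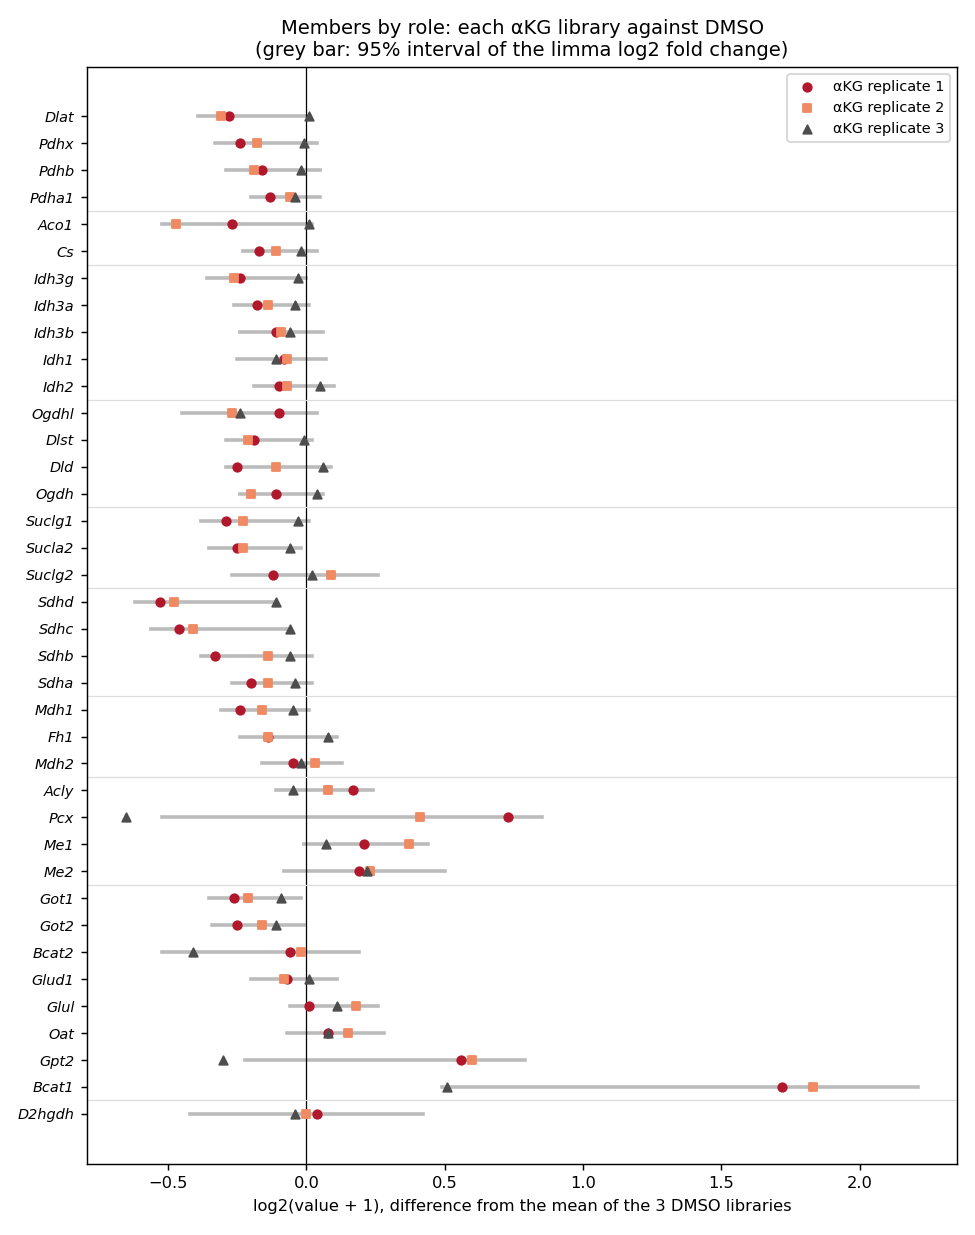
Each row is a gene, grouped by role from the PDH complex at the top to D2hgdh at the bottom, and the horizontal axis is the log2(value + 1) of each αKG library minus the mean of the 3 DMSO libraries. Grey bars are 95% intervals of the fitted log2 fold change. αKG replicate 3 (triangles) lies nearer to 0 than αKG replicates 1 and 2 for 30 of the 38 genes.

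The 3 αKG libraries did not move alike, as the plot of each αKG library against DMSO shows. The median difference of the 38 genes from the DMSO mean was -0.13 in αKG replicate 1, -0.13 in αKG replicate 2 and -0.03 in αKG replicate 3, on the log2 scale. Each DMSO library set against the other two gave a median of -0.04 to 0.01. αKG replicate 3 lay nearest to DMSO of the 3 αKG libraries for 30 of the 38 genes and inside the DMSO range for 14. All 3 αKG values lay below all 3 DMSO values for 13 genes (34.2%), against 14.6% of all genes and 26.9% of genes with a mean value of at least 100. They lay above for 2 genes, Bcat1 and Glul (5.26%), against 13.7% of all genes.

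Without αKG replicate 3, 24 of the 38 genes passed the same threshold in limma. Of these, 20 were lower (52.6%), against 17.9% of all genes and 34.6% of genes with a mean value of at least 100. The other 4, Bcat1, Gpt2, Pcx and Me1, were higher (10.5%), against 19.3% of all genes. The median log2 fold change of the 38 was then -0.15, with -0.11 for genes with a mean value of at least 100. Since this comparison leaves out the library that differed most from its group, it describes αKG replicates 1 and 2 and not the treatment group.

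**Figure D2:**
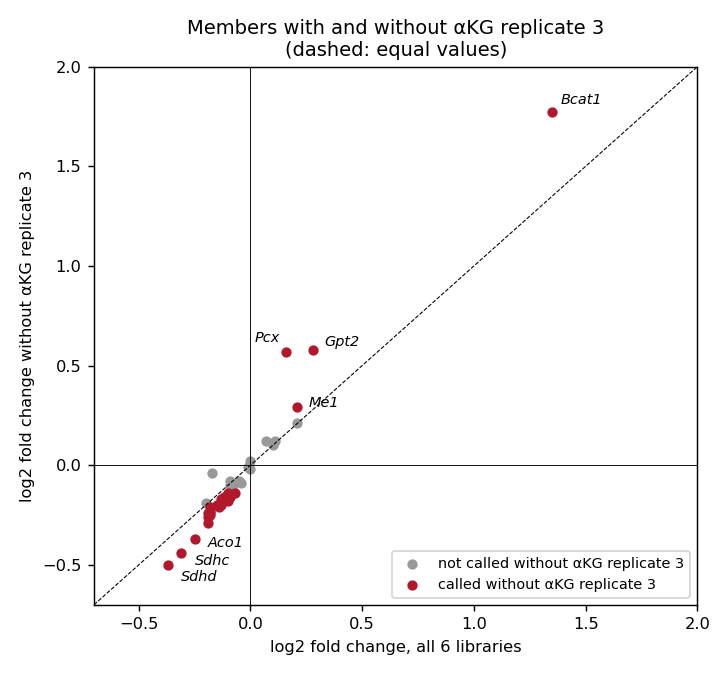
Each point is one of the 38 genes, with its log2 fold change from all 6 libraries on the horizontal axis and from the 5 libraries without αKG replicate 3 on the vertical axis. Red points passed the threshold without αKG replicate 3 (24 genes). Pcx and Gpt2 lie farthest above the dashed line of equal values, together with Bcat1, and Sdhd and Sdhc lie lowest.

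Succinate dehydrogenase, which is complex II of the respiratory chain and oxidises succinate to fumarate, had the lowest median of the roles with more than 1 gene, although succinate-CoA ligase had the same median after a correction for GC content and length. Its 4 nuclear genes all had lower values in every αKG library than in any DMSO library, with a median log2 fold change of -0.24. Sdhd, a membrane anchor subunit (chromosome 9, 50596357 to 50603812 in GRCm38), had values of 519, 504 and 547 across DMSO replicates 1 to 3, against 363, 375 and 485 across αKG replicates 1 to 3. αKG replicates 1 and 2 were well below the DMSO range, and αKG replicate 3 was just below it. The log2 fold change of Sdhd was -0.37 ± 0.11 (SE, 95% interval -0.62 to -0.12, limma adjusted p = 0.0839), and -0.50 without αKG replicate 3 (adjusted p = 0.00167). Sdhc, the other anchor subunit, stood at 454, 440 and 468 in DMSO and at 329, 342 and 434 in αKG, in the same order of libraries. Its log2 fold change was -0.31 ± 0.11 (SE, adjusted p = 0.112), and -0.44 without αKG replicate 3 (adjusted p = 0.00231).

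The catalytic subunits had smaller log2 fold changes, and the difference between subunits was not tested. Sdha, the flavoprotein, had 1298, 1291 and 1355 in DMSO and 1141, 1192 and 1282 in αKG, with a log2 fold change of -0.13 ± 0.06 (SE, adjusted p = 0.222). For Sdhb, the iron-sulphur subunit, the values were 490, 467 and 499 in DMSO and 386, 440 and 465 in αKG, with a log2 fold change of -0.18 ± 0.09 (SE, adjusted p = 0.222). The highest αKG value of Sdhb, in replicate 3, was 465 and the lowest DMSO value 467, so the groups only just did not overlap. Without αKG replicate 3, Sdha (-0.17, adjusted p = 0.0197) and Sdhb (-0.23, adjusted p = 0.0411) passed the threshold, as Sdhc and Sdhd did. All 4 subunits stayed below 0 when the libraries were scaled to the same total (median -0.27), by quantile normalization (-0.21) or after a correction for GC content and length (-0.18).

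**Figure D3:**
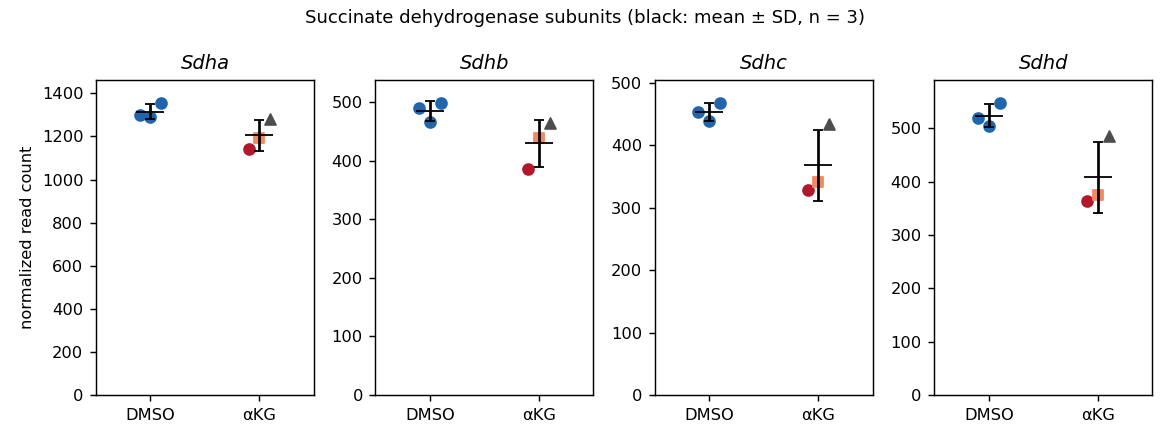
Normalized read counts of the 4 succinate dehydrogenase subunit genes in each library, with DMSO on the left and αKG on the right of each panel and vertical axes that start at 0. Black lines are mean ± SD of 3 libraries, and the triangle is αKG replicate 3, the highest αKG library in all 4 panels. For Sdhd the mean was 523.3 ± 21.8 in DMSO and 407.7 ± 67.2 in αKG, and for Sdha 1314.7 ± 35.1 and 1205.0 ± 71.4.

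The promoters of the succinate dehydrogenase genes are shown because the values of these genes lay on one side of DMSO in every αKG library. A RefSeq entry (GRCm38.p6) was found for 35 of the 38 genes, and Sdhc, Idh3a and Me2 had none. Given 5′ to 3′, the 250 bases before the RefSeq start are chr9:50603850-50604099 (minus strand) for Sdhd, chr4:140961021-140961270 (plus strand) for Sdhb and chr13:74350241-74350490 (minus strand) for Sdha. Capitals mark matches on either strand to 7 motifs: the ETS-family core CCGGAAG, the nuclear respiratory factor 1 core GCGCATGC, the CCAAT box CCAAT, the E-box CACGTG, the antioxidant response element core TGACNNNGC, the estrogen-related receptor half-site AAGGTCA and the amino acid response element core TGATGNAA. All matches in the promoters shown are to the complementary strand, and none overlaps another.
Sdhd: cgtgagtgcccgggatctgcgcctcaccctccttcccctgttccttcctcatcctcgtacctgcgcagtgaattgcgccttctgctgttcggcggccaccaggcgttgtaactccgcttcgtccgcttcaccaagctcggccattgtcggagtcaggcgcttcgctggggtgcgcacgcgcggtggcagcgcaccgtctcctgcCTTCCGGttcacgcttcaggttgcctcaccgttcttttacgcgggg
Sdhb: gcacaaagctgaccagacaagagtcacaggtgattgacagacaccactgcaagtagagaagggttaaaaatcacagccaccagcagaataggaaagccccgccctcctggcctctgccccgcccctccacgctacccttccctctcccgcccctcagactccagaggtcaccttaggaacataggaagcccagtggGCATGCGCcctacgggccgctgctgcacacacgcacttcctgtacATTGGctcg
Sdha: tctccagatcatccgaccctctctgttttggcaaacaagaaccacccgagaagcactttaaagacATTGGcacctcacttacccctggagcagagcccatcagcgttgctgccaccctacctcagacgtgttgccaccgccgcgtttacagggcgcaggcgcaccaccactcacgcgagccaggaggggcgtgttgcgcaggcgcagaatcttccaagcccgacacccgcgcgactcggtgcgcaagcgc

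The Sdhd stretch holds 1 match, the ETS-family core, whose first base is 46 bases before the start. The Sdhb stretch holds the nuclear respiratory factor 1 core at 54 bases and a CCAAT box at 9 bases before the start, and the Sdha stretch holds a CCAAT box at 185 bases. No motif was common to the 3 promoters. Over the 35 genes with an entry, 18 held a CCAAT box in some entry, against 37.5% of all 27025 genes, 3 held the ETS-family core (Glud1, Idh3g and Sdhd) against 7.83%, and 3 held the nuclear respiratory factor 1 core (Glud1, Ogdh and Sdhb) against 2.56%. The antioxidant response element core was found for 4 genes (11.5% of all genes) and the E-box for 2 (6.86%). Both the estrogen-related receptor half-site (4.7% of all genes) and the amino acid response element core (3.91%) were found for 1 gene, Got1. Per promoter entry, the shares were 33.8%, 6.91%, 2.26%, 10.2%, 6.02%, 4.08% and 3.45% in the same order.

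Bcat1, the cytosolic branched-chain aminotransferase, which moves the amino group of leucine, isoleucine and valine onto αKG and so makes glutamate, had the largest fold change of the 38. Its values were 12, 10 and 9 in DMSO and 36, 39 and 15 in αKG, so that all αKG libraries were above DMSO, with αKG replicate 3 close to it. The log2 fold change was 1.35 ± 0.39 (SE, 95% interval 0.49 to 2.21, limma adjusted p = 0.0747), and 1.77 without αKG replicate 3 (adjusted p = 0.00264). The pseudocount of 1 understates the change of a gene with values this low. Bcat1 was the lowest of the 38 per exon length, at 1.11 ± 0.16 per kb (SD, n = 3) in DMSO and 3.22 ± 1.4 in αKG. Bcat2, its mitochondrial counterpart, had 189, 138 and 154 in DMSO and 152, 157 and 119 in αKG, with groups that overlap. Of the exon bases of Bcat2, 15.9% are shared with a gene on the other strand, whose mean value was 1.3. Counting without strand would leave out the reads from these bases. The Bcat1 promoter entry that lies at the 5′ end of the gene, chr6:145076158-145076407 on the minus strand, holds a CCAAT box on the complementary strand (capitals), 53 bases before the start.
Bcat1: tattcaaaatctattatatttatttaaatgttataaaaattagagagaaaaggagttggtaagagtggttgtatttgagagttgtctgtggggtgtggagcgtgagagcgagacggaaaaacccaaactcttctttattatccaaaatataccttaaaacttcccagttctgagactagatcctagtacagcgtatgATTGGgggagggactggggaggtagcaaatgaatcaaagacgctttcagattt

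The other aminotransferases and glutamate enzymes went in both directions, with 4 of the 8 genes of this role fitted higher, 4 lower and a median of 0.03. Got1 and Got2, the cytosolic and mitochondrial aspartate aminotransferases of the malate-aspartate shuttle, both had lower values in every αKG library than in any DMSO library. Of the exon bases of Got2, 9.0% are shared with a gene on the other strand. Got1 had 794, 725 and 763 in DMSO and 635, 655 and 713 in αKG (a log2 fold change of -0.19 ± 0.07 SE, adjusted p = 0.136). Got2 had 557, 542 and 542 in DMSO and 459, 489 and 506 in αKG (a log2 fold change of -0.18 ± 0.07 SE, adjusted p = 0.156). Both passed the threshold without αKG replicate 3, at adjusted p-values of 0.0154 and 0.0207. Glul, glutamine synthetase, was the second gene with values above DMSO in every αKG library, at 589, 590 and 589 against 595, 667 and 637. That separation rests on the small spread of the DMSO libraries, and the log2 fold change was 0.10 ± 0.07 (SE, adjusted p = 0.37).

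Gpt2, the mitochondrial alanine aminotransferase, was split between αKG libraries. Its values were 150, 127 and 118 in DMSO and 193, 199 and 106 in αKG, so 2 αKG libraries lay above and 1 below all DMSO libraries. The log2 fold change was 0.28 ± 0.23 (SE, adjusted p = 0.431), and 0.58 without αKG replicate 3 (adjusted p = 0.0107). The epicardial marker sum given above has the same order, with αKG replicates 1 and 2 above and αKG replicate 3 below DMSO, and its part was not tested. Glud1, glutamate dehydrogenase (a log2 fold change of -0.05), Oat, ornithine aminotransferase (0.11), and Bcat2 (-0.17) did not pass the threshold with or without αKG replicate 3. D2hgdh, which oxidises D-2-hydroxyglutarate to αKG, had 84, 55 and 65 in DMSO and 69, 67 and 65 in αKG, all inside the DMSO range.

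The isocitrate dehydrogenases make αKG, and all 5 had a fitted value below 0, with a median of -0.09. The NAD-dependent mitochondrial enzyme is built from Idh3a, Idh3b and Idh3g. Idh3a, its catalytic subunit, had 1315, 1280 and 1298 in DMSO and 1143, 1174 and 1263 in αKG (a log2 fold change of -0.12 ± 0.06 SE, adjusted p = 0.22). Idh3b had 603, 605 and 634 in DMSO and 567, 576 and 590 in αKG (-0.09 ± 0.07 SE, adjusted p = 0.414). In both genes every αKG library was below every DMSO library. The values of Idh3g were 623, 604 and 631 in DMSO and 525, 518 and 605 in αKG, and here αKG replicate 3 fell inside the DMSO range (-0.18 ± 0.08 SE, adjusted p = 0.188). Without αKG replicate 3, Idh3a and Idh3g passed the threshold (adjusted p = 0.0145 and 0.00774), and Idh3b did not (0.126).

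The NADP-dependent enzymes Idh1, in the cytosol, and Idh2, in mitochondria, differed little. Idh1 had 420, 424 and 423 in DMSO and 399, 401 and 390 in αKG, the tightest values of the family, and the groups did not overlap. The log2 fold change of Idh1 was -0.09 ± 0.07 (SE, 95% interval -0.25 to 0.07, adjusted p = 0.439). Idh2 had 995, 962 and 988 in DMSO and 915, 934 and 1013 in αKG, which overlap, and its log2 fold change of -0.04 ± 0.06 (SE) became 0.07 after the correction for GC content and length. Neither passed the threshold without αKG replicate 3.

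The OGDH complex consumes αKG, and the median over its 4 genes was -0.12. Ogdh, the main E1 subunit, had 1887, 1892 and 1892 in DMSO and 1750, 1642 and 1937 in αKG. αKG replicate 3 thus held the highest value of all 6 libraries, while αKG replicates 1 and 2 were below DMSO. The log2 fold change of Ogdh was -0.09 ± 0.07 (SE, 95% interval -0.24 to 0.06, adjusted p = 0.376), and -0.16 without αKG replicate 3 (adjusted p = 0.02). Ogdhl, a related E1 subunit, was the one gene of the complex with non-overlapping groups, at 178, 173 and 172 in DMSO and 163, 144 and 147 in αKG (-0.20, adjusted p = 0.24). Dlst, the E2 subunit (-0.13), and Dld, the E3 subunit that also serves the PDH complex (-0.10), passed the threshold only without αKG replicate 3.

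In the PDH complex, which turns pyruvate into acetyl-CoA, all 4 genes were fitted lower, with a median of -0.13. Pdha1, the E1 α-subunit, had 1668, 1631 and 1685 in DMSO and 1521, 1588 and 1620 in αKG, with no overlap (-0.08 ± 0.05 SE, adjusted p = 0.376). Dlat, the E2 subunit, had the lowest log2 fold change of the complex, at -0.19, with 981, 1035 and 1036 in DMSO and 840, 823 and 1027 in αKG. Again αKG replicate 3 was inside the DMSO range. Dlat, Pdhx and Pdhb passed the threshold without αKG replicate 3 and Pdha1 did not (adjusted p = 0.0809). Of the exon bases of Pdha1, 16.1% are shared with Map3k15 on the other strand, and the counting is not stated to use strand. Reads that fit more than 1 gene were left out, so counting without strand would lose the reads of Pdha1 from the shared bases. The mean value of Map3k15, 31.7, does not bear on that loss.

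Citrate synthase (Cs) had 1440, 1397 and 1443 in DMSO and 1266, 1326 and 1408 in αKG, with a log2 fold change of -0.10 ± 0.06 (SE, adjusted p = 0.307), and of -0.14 without αKG replicate 3 (adjusted p = 0.0318). Aco1, the cytosolic aconitase that also acts as an iron-responsive RNA-binding protein, had a log2 fold change of -0.25 (adjusted p = 0.215), which was -0.37 without αKG replicate 3 (adjusted p = 0.015). Among the succinate-CoA ligase genes, which carry the substrate-level phosphorylation step of the cycle, the ATP-specific β-subunit gene Sucla2 had 763, 786 and 770 in DMSO and 648, 658 and 742 in αKG (-0.18 ± 0.07 SE, adjusted p = 0.148). The groups of Sucla2 did not overlap. The shared α-subunit gene Suclg1 had a similar value (-0.19), and the GTP-specific β-subunit gene Suclg2 had 0.00, with an interval of -0.27 to 0.26. Without αKG replicate 3, Sucla2 (-0.24, adjusted p = 0.00582) and Suclg1 (-0.26, adjusted p = 0.00912) passed the threshold and Suclg2 did not.

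Mdh1, the cytosolic malate dehydrogenase, had 819, 805 and 838 in DMSO and 695, 735 and 795 in αKG, without overlap (-0.15 ± 0.07 SE, adjusted p = 0.205). Mdh2, its mitochondrial counterpart, was at 757, 738 and 747 in DMSO and 721, 764 and 737 in αKG, with a log2 fold change of -0.01 ± 0.06 (SE, interval -0.16 to 0.13). Fh1, fumarase, had a log2 fold change of -0.07 and was highest of all libraries in αKG replicate 3, at 774. Without that library Mdh1 (-0.20, adjusted p = 0.0168) and Fh1 (-0.14, adjusted p = 0.0412) passed the threshold.

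The 22 mitochondrial genes of the PDH complex, the cycle and its complexes were all fitted below 0 in the comparison of all libraries, 9 of them with non-overlapping groups, and 16 passed the threshold as lower without αKG replicate 3. Of all genes, 47.1% were fitted below 0, 14.6% had every αKG value below DMSO and 17.9% passed as lower without αKG replicate 3. Of genes with a mean value of at least 100, the shares were 62.6%, 26.9% and 34.6% in the same order. With the correction for GC content and length or with quantile normalization, 20 of the 22 were below 0.

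Enzymes that feed or drain the cycle by other routes were fitted higher. All 4 genes of this role had a log2 fold change above 0, with a median of 0.19, and none had non-overlapping groups. Acly, which splits citrate in the cytosol to give acetyl-CoA, had 593, 580 and 604 in DMSO and 666, 625 and 572 in αKG (0.07 ± 0.08 SE, adjusted p = 0.595). Me1 and Me2, the malic enzymes, both had a log2 fold change of 0.21, with adjusted p-values of 0.194 and 0.305. Without αKG replicate 3, Me1 passed the threshold (0.29, adjusted p = 0.0365) and Me2 did not. Pcx, pyruvate carboxylase, which makes oxaloacetate from pyruvate, had 119, 88 and 93 in DMSO and 165, 132 and 63 in αKG. Like Gpt2, it was above DMSO in αKG replicates 1 and 2 and below it in αKG replicate 3. Its log2 fold change was 0.16 ± 0.31 (SE, adjusted p = 0.749), it was 0.57 without αKG replicate 3 (adjusted p = 0.0362), and it was -0.12 without αKG replicate 1.

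By compartment, the median log2 fold change of the 30 genes of mitochondrial enzymes was -0.11, with 26 fitted lower, and the median of the 8 genes of cytosolic enzymes was -0.01, with 4 lower and 4 higher. Of the cytosolic genes, Aco1, Idh1, Mdh1 and Got1 were lower, and Acly, Me1, Glul and Bcat1 were higher. The 4 mitochondrial genes fitted higher were Pcx, Me2, Gpt2 and Oat. In both compartments, the higher genes were carboxylase, malic enzyme and citrate lyase genes or glutamate and aminotransferase genes. The difference between compartments was not tested, and compartment and role were not separated.

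Per kb of exon, which allows levels of different genes to be set side by side, the 38 genes spanned 1.11 to 444.9 normalized read counts in DMSO. Pdha1 was highest, at 444.9 ± 7.39 (SD, n = 3), followed by Sdhd at 425.1 ± 17.7, and these neighbours in the order overlap within 1 SD. Idh2 (379.3 ± 6.72), Ogdh (346.5 ± 0.53), Mdh1 (319.7 ± 6.45) and Sdha (318.6 ± 8.51) followed, and the last pair did not differ beyond its spread. In αKG, Sdhd stood at 331.2 ± 54.6 per kb, below Idh2 at 368.6 ± 20.1, and the 2 overlap within 1 SD. Ogdhl, at 42.0 per kb, and Idh1, at 152.4 per kb, were lower than their counterparts Ogdh and Idh2. The lowest levels were those of Gpt2, Pcx, Me2, D2hgdh and Bcat1, between 1.11 and 23.3 per kb in DMSO.

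**Figure D4:**
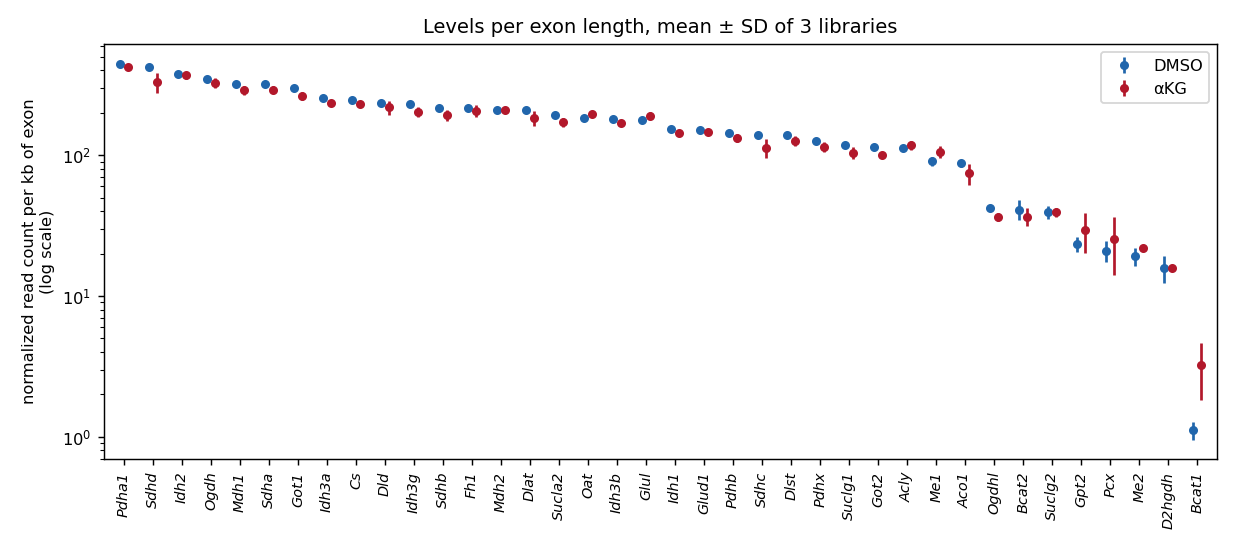
Normalized read count per kb of exon for the 38 genes, in the order of their level in DMSO, on a log axis. Points are means and bars SD of 3 libraries, with DMSO in blue and αKG in red. Levels run from 444.9 for Pdha1 to 1.11 for Bcat1, and Pcx, Gpt2 and Bcat1 have the widest αKG bars relative to their mean.

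Fold changes differed between classes of exon length, and the part of length in the values of the 38 genes was not tested. Among the genes with a mean value of at least 100, the median log2 fold change was -0.18 in the quartile with the shortest exons (360 to 3528 bases), -0.13 and -0.07 in the next quartiles and 0.04 in the longest. The 12 of the 38 genes in the shortest quartile had a median of -0.12, and the 19 in the second quartile also had -0.12. Most of the 36 genes with a mean of at least 100 thus lay in the quartiles with the lowest medians, and their medians there were above or close to those of all genes. After the correction for GC content and length, the median of the 38 was -0.07, with 27 below 0, and that of genes with a mean value of at least 100 was -0.08. Sdhd, with 1231 exon bases, was the shortest of the 38.

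**Figure D5:**
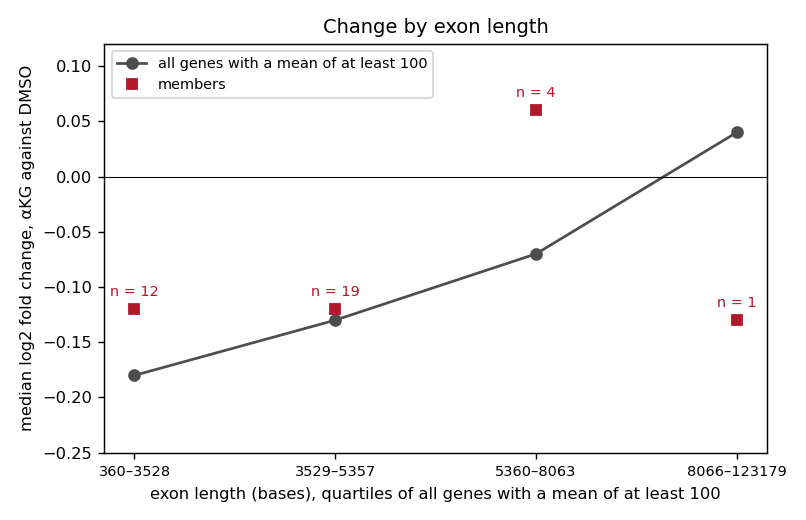
Median log2 fold change of αKG against DMSO (vertical axis) in 4 quartiles of exon length (horizontal axis, in bases) for all genes with a mean value of at least 100 (circles), with the median of the genes of interest in each quartile (squares, n above each). The median of all genes goes from -0.18 to 0.04 with length, and the 12 and 19 genes of interest in the shorter quartiles lie at -0.12.

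Genes that act beside these enzymes were read from the same fit. Of 61 such genes in 6 lists, 59 were in the table, and 7 of them passed the threshold, 2 higher and 5 lower in αKG, against 3.78% of all genes (568 higher and 191 lower). The count was 34 (57.6%) without αKG replicate 3 and 0 without any one other library. Without αKG replicate 3, 37.2% of all genes passed, and 4399 of the 8295 genes with a mean value of at least 100. The median of the 59 log2 fold change was -0.06. Among genes of glutamine, proline and serine metabolism, Psat1, a serine synthesis aminotransferase that releases αKG from glutamate, rose from 160, 131 and 104 to 243, 257 and 196 (log2 fold change 0.82 ± 0.17 SE, limma adjusted p = 0.0377). In the same list, Abat, the GABA aminotransferase, fell from 282, 195 and 235 to 98, 111 and 131 (-1.05 ± 0.16 SE, adjusted p = 0.016), and Nit2, an ω-amidase that yields αKG, fell from 95, 81 and 102 to 55, 57 and 56 (-0.71 ± 0.16 SE, adjusted p = 0.0441). For these 3 genes, αKG replicate 3 lay on the αKG side of the DMSO range.

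Pck2, the mitochondrial phosphoenolpyruvate carboxykinase, which draws on oxaloacetate, rose from 129, 132 and 106 to 369, 337 and 168 (1.17 ± 0.26 SE, adjusted p = 0.0436). Bckdha, the E1 α-subunit of the branched-chain ketoacid dehydrogenase, fell from 311, 303 and 358 to 183, 191 and 241 (-0.66 ± 0.13 SE, adjusted p = 0.0318). Ppm1k, the phosphatase that activates that complex, fell from 529, 543 and 502 to 333, 385 and 406 (-0.49 ± 0.09 SE, adjusted p = 0.0316). Fahd1, an oxaloacetate decarboxylase, fell from 167, 194 and 196 to 121, 123 and 141 (-0.53 ± 0.12 SE, adjusted p = 0.0475). Without αKG replicate 3, the log2 fold changes were 1.53 for Pck2, 0.94 for Psat1, -1.16 for Abat and -0.71 for Nit2. They were -0.79 for Bckdha, -0.55 for Ppm1k and -0.60 for Fahd1. All 7 passed in that comparison, as did 37.2% of all genes.

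The other lists held no gene past the threshold with all libraries. The 6 genes named from them next passed it without αKG replicate 3, as did 37.2% of all genes. Of the PDH kinases, Pdk4 had 476, 527 and 529 in DMSO and 603, 678 and 785 in αKG (0.42, adjusted p = 0.0507), whereas Pdk2 had 669, 616 and 673 in DMSO and 384, 397 and 568 in αKG (-0.56, adjusted p = 0.0527). Both separated the groups, in opposite directions. In the list of lipoylation and succinate dehydrogenase assembly genes, 7 of 8 were fitted lower, with a median of -0.30, and the smallest adjusted p-values were those of the assembly factors Sdhaf4 (-0.58, 0.0906) and Sdhaf2 (-0.41, 0.103). The mitochondrial carriers Slc25a13, for aspartate and glutamate, and Slc25a11, for αKG and malate, had log2 fold changes of -0.46 and -0.40 (adjusted p = 0.0616 and 0.0823).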

How the data were processed

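RNA was sequenced from 6 libraries of neonatal mouse CMs, 3 per group. According to the methods and the submitters' processing notes, trimming was done by the authors with Trimmomatic (0.39), alignment to mm10 (GRCm38) with STAR (2.7.10a), and counting of exonic reads with featureCounts (2.0.3), without reads that fit more than 1 gene or place, followed by DESeq2 (1.30.1). The deposited values are a score here: the authors scaled the counts of each library by a size factor and rounded the result, so they are not raw counts, and a test for counts (limma-voom, on reads estimated from the spacing of low values) was only an alternative. The kit is stranded, but counting by strand is not stated, and exons of 8 of the 38 genes overlap another gene. Counting without strand would leave out reads from bases shared with a gene on the other strand.

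Every listed gene reaches 2 or more in at least 1 library. Positions were those of GENCODE M21 for 99% of genes, which gave exon lengths. One model (limma 3.58.1 in R 4.3.3, with a variance trend, treatment as its only term, no filter, a pseudocount of 1) was fitted to all 6 libraries, and adjusted p-values are Benjamini-Hochberg values over 20066 genes. The members and lists were chosen with earlier results of these data known. Genes were given with values in every library where groups did not overlap or where they had the highest mean of their role. Ogdh and the isocitrate dehydrogenases were given in the same way, because the study examines them as enzymes that use or make αKG. Some others were added. Of the neighbouring genes, those past the threshold and the 2 with the smallest p of each list were named. One result is not reported here. Of the 7 marker lists, mural markers summed to 2247 to 2385 in DMSO and 2617 to 3318 in αKG. For macrophages, 4 of 8 markers were listed (22 to 35 and 24 to 41). Cycling markers summed to 3166 to 5531 in DMSO and to 6817, 6521 and 7450 in αKG replicates 1 to 3. Alternatives were pseudocounts, filters, scaling, GC content and length, a replicate block, and each library left out.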

Additional observations from a re-analysis of the deposited data

How the results depend on the processing

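The median log2 fold change of the 38 genes stayed below 0 under all 17 alternatives, between -0.07 and -0.15. Of 646 gene values (38 genes, 17 alternatives), 616 kept their side of the threshold and did not turn from one direction to the other, 24 passed it when αKG replicate 3 was left out, and 6 turned direction: Idh2 (0.07) and Mdh2 (0.05) with the GC and length correction, both with and without the block, and Mdh2 (0.01) and Pcx (-0.12) without αKG replicate 1. With single libraries left out, Mdh2 ranged from -0.04 to 0.01 and Pcx from -0.12 to 0.57. Suclg2 and D2hgdh, whose values round to 0.00, have no direction to lose and are in the 616, with ranges of -0.05 to 0.08 and -0.14 to 0.16, and Mdh2 was 0.00 with quantile normalization. The number of the 38 past the threshold was 0 in 16 alternatives and 0 to 24 with single libraries left out, and 6 at an unadjusted p.

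Counts past the threshold for all genes (759) and for the 59 neighbouring genes (7) moved more. They were 346 and 3 with a pseudocount of 0.1, 27 and 0 without a variance trend, 327 and 3 with limma-voom on estimated reads, 19 and 0 with DMSO replicates 2 and 3 averaged, and 5648 and 26 at an unadjusted p. With single libraries left out they ran from 0 to 7466 and from 0 to 34. Both highest counts are those without αKG replicate 3, and all genes gave 0 without αKG replicate 1 or 2 (3324 and 3244 at an unadjusted p in limma). Without any one of the other 5 libraries, 0 neighbouring genes passed. The cause was not tested.

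Libraries with the same number did not deviate together (correlations -0.074, 0.136 and 0.002). This cannot settle whether the numbers pair them, because the αKG deviations are taken from a group mean that includes αKG replicate 3. With the replicate block, 46 genes, 0 neighbouring genes and 0 of the 38 passed (4 of the 38 at an unadjusted p), and with the block and the GC and length correction 1086 genes and 11 neighbouring genes.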

Other observations

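Ratios of values between genes of one library, which do not depend on the scaling of libraries, were computed for 14 pairs, some chosen after values were seen, and no test was made. Sdhd per Sdha was 0.4, 0.39 and 0.404 across DMSO replicates 1 to 3, against 0.318, 0.315 and 0.378 across αKG replicates 1 to 3. Sdhc per Sdha was 0.35, 0.341 and 0.345 in DMSO and 0.288, 0.287 and 0.339 in αKG. Both anchor subunits thus lay lower against the flavoprotein in every αKG library, while Sdhb per Sdha overlapped between groups. For Sdhc, αKG replicate 3 was only just below DMSO (0.339 against 0.341). The exons of Sdhd (1231 bases) and Sdhc (3250) are shorter than those of Sdha (4126), and the part of length in these ratios was not tested.

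Mdh1 per Mdh2 was 1.082, 1.091 and 1.122 in DMSO and 0.964, 0.962 and 1.079 in αKG. The groups again did not overlap, but αKG replicate 3 was only just below DMSO. Bcat1 per Bcat2 was 0.063, 0.072 and 0.058 in DMSO and 0.237, 0.248 and 0.126 in αKG. The other pairs overlapped, and among them Got1 per Got2 was 1.338 to 1.425 in DMSO and 1.339 to 1.409 in αKG.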
